A study of Mus musculus with 6 samples.

Results

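The respiratory chain and its transcriptional regulators were described as 96 genes, of the 19938 genes that had a microarray probe set of their own. They were taken by name. Complexes I to V of the chain were the genes whose symbols begin with Nduf, Sdha to Sdhd, Uqcr, Cox4 to Cox8 and Atp5, and they came to 89 genes with the 7 Ndufaf assembly factors of complex I counted among them. The regulators were the 7 genes Ppargc1a, Ppargc1b, Pprc1, Esrra, Nrf1, Gabpa and Tfam. By complex, 36 genes belonged to complex I, 4 to complex II, 8 to complex III, 17 to complex IV and 17 to complex V. The 96 genes were read by 122 probe sets, of 35556 in the table. Where a gene had several probe sets, the brightest was used. Another 6 probe sets carried a symbol of the chain together with that of a second gene, among them those shared by Ndufb4 and Ndufb4b and by Cox7c and Gm12338, and these were not used.

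The arrays compared mouse bone marrow-derived macrophages (BMMs) cultured with recombinant GDF11 (rGDF11, a ligand of the TGF-β superfamily) on top of M-CSF and RANKL with BMMs given M-CSF and RANKL alone. M-CSF keeps macrophage precursors alive and RANKL drives them to become osteoclasts, the bone-resorbing cells. The marrow came from the tibiae of 9-week-old mice, and both groups were kept for 24 hours in M-CSF at 100 ng/ml with RANKL at 50 ng/ml, to which the RANKL + rGDF11 group had rGDF11 added at 100 ng/ml and the RANKL group vehicle. Each group held 3 biological replicates, and the labels do not say whether these were separate mice or separate cultures of pooled marrow, so the p-values reflect how much these particular samples varied and no more. BMMs without RANKL were not analysed here, and the RNA came from whole cultures and not from purified osteoclasts. All levels are log2 values on the scale of the robust multichip average (RMA), and a difference is the mean of the RANKL + rGDF11 samples minus that of the RANKL samples. A gene was called higher or lower where limma, a linear model fitted to all 23410 probe sets with a gene symbol, gave a p under 0.05 after Benjamini-Hochberg adjustment over them.

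Complexes I to IV pass electrons from NADH and succinate to oxygen. Complexes I, III and IV, but not complex II, pump protons across the inner mitochondrial membrane. Complex V, the ATP synthase, uses that gradient to make ATP. The PGC-1 coactivators do not bind DNA themselves. They dock on factors such as the oestrogen-related receptor ERRα (Esrra), NRF-1 (Nrf1) and the ETS factor GABP (Gabpa), which sit on promoters of nuclear genes for respiratory subunits and of Tfam, the factor that packages and transcribes mitochondrial DNA. Osteoclasts are rich in mitochondria, and PGC-1β (Ppargc1b) is known for its part in the growth of mitochondria in the differentiating osteoclast.

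Promoter sequences were available for 73 of the 89 chain genes, with 78 promoters between them, from RefSeq (build GRCm38.p6, 250 bases before to 50 after each start). The core bound by NRF-1, spelled GCGCATGC (GCATGCGC on the other strand), stood in 12 of the 78 promoters, or 15.4%, against 2.71% of all 32851 promoters in the same table. The YY1 core AAGATGGC was present in 12.8% of the chain promoters against 2.75% of all, the ERR site CAAGGTCA in 5.13% against 1.56%, the ETS site CCGGAAGT in 6.41% against 3.89% and the AP-1 site TGAGTCA in 7.69% against 5.2%, with both strands searched for each. The promoters of the 5 chain genes with the smallest limma adjusted p are shown. They include 1 gene with none of these motifs and 4 with the NRF-1 core. The other chain genes called, Atp5h, Ndufb7 and Ndufs7, held no NRF-1 core in their promoters. Capitals mark the NRF-1 core and, in Uqcr11, also the ETS site that lies upstream of it.
Ndufa4 promoter, chr6:11907401-11907700, minus strand: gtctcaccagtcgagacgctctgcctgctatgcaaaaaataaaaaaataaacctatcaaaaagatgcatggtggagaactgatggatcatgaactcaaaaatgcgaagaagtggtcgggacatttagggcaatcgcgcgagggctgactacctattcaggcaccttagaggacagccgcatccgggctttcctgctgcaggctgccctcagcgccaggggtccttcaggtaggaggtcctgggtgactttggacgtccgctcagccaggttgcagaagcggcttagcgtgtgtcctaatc
Ndufaf4 promoter, chr4:24897833-24898132, plus strand: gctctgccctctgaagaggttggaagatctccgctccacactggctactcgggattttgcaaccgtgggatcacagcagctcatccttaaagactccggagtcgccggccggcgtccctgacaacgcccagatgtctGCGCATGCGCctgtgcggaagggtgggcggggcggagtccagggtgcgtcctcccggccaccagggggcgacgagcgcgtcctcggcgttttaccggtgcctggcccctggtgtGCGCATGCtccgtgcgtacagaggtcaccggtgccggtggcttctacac
Cox6a1 promoter, chr5:115348909-115349208, minus strand: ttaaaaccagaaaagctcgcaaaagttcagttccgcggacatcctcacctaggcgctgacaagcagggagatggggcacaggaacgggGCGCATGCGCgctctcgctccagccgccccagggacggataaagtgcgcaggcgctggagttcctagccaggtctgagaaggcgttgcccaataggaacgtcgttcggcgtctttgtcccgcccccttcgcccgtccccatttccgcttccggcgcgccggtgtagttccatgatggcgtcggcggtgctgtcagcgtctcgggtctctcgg
Sdhb promoter, chr4:140961021-140961320, plus strand: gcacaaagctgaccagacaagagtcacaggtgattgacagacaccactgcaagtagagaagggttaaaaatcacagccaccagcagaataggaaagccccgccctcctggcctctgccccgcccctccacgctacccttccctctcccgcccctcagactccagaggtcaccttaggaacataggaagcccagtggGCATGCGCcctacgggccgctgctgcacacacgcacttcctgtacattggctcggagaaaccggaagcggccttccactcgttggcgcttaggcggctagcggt
Uqcr11 promoter, chr10:80406772-80407071, minus strand: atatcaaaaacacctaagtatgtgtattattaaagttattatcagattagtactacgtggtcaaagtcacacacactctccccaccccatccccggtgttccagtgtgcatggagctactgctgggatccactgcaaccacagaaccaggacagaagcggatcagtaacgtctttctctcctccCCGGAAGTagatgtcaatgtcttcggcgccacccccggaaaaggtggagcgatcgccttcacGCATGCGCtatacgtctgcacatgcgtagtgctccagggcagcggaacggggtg

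The core began 54 bases before the start in Sdhb and 4 bases before it in Uqcr11. In Ndufaf4 and Cox6a1 the palindrome GCGCATGCGC gave a pair of overlapping matches, the first of them beginning 113 bases before the start in Ndufaf4 and 162 bases before it in Cox6a1, and Ndufaf4 held a further core just past its start. Of the 12 chain genes with an NRF-1 core, 3 were higher with rGDF11 (Ndufaf4, Sdhb and Uqcr11), 1 was lower (Cox6a1) and 8 did not pass the test, with log2 fold changes that ran between -0.28 and 0.50 and a median of -0.003. Among all tested probe sets 7.31% were called higher and 8.64% lower, and among those brighter than the median 12.1% and 15.1%, and with so few genes per motif nothing is read from these counts. Of the 10 genes with a YY1 core, 1 was higher (Ndufs7) and 9 did not pass. Of the 5 with an ETS site, 1 was higher (Uqcr11), 1 was lower (Atp5h) and 3 did not pass. The 4 genes with an ERR site and the 6 with an AP-1 site did not pass limma's test, where the smallest unadjusted p were 0.0387 (Atp5l) and 0.0118 (Atp5g1). A match to these letters is a description of the sequence, and binding of the factors was not measured.

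Among the PGC-1 coactivators, Ppargc1b and Pprc1 were higher with rGDF11, and Ppargc1a did not pass the test. Ppargc1b, which encodes PGC-1β, read 7.46, 7.20 and 7.53 (log2 expression) in the 3 RANKL + rGDF11 samples, against 6.38, 6.26 and 6.57 in the 3 RANKL samples. The groups did not overlap, and the lowest rGDF11 sample lay well above the highest RANKL sample. The difference was 0.99 on the log2 scale, which is 1.99-fold (95% interval 1.66 to 2.39, limma adjusted p = 0.000812). In bulk cultures such as these, more RNA per cell and more cells that express a gene cannot be told apart. Pprc1, which encodes the related coactivator PRC, read 8.07, 8.24 and 8.31 with rGDF11 against 7.71, 7.86 and 7.99 with RANKL alone. These groups lay next to each other without overlap, and the 1.28-fold difference (95% interval 1.09 to 1.49) was close to the threshold, with a limma adjusted p of 0.0451. Its call was lost when RANKL replicate 1 or 2 or RANKL + rGDF11 replicate 2 or 3 was left out (limma adjusted p = 0.116, 0.106, 0.106 and 0.136 in that order). Ppargc1a, which encodes PGC-1α, was dim on the arrays and read 4.17, 3.86 and 4.09 with rGDF11 against 4.12, 4.08 and 4.12 with RANKL alone, so that the groups overlapped (0.956-fold, 95% interval 0.831 to 1.10, limma adjusted p = 0.698). Its second probe set gave 0.963-fold (95% interval 0.835 to 1.11).

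The partner factors did not pass the test. Esrra averaged 7.16 ± 0.080 with rGDF11 and 7.11 ± 0.10 with RANKL alone (log2, SD, n = 3 each), a 1.03-fold difference with a 95% interval of 0.911 to 1.17. Nrf1 averaged 8.18 ± 0.085 with rGDF11 and 8.11 ± 0.072 with RANKL alone, a 1.05-fold difference with an interval of 0.934 to 1.18. Gabpa averaged 9.03 ± 0.088 with rGDF11 and 9.00 ± 0.17 with RANKL alone, a 1.02-fold difference with an interval of 0.874 to 1.19. The intervals of these 3 genes therefore left out changes of 1.25-fold in either direction. Tfam read 6.91, 7.21 and 6.90 with rGDF11 against 7.18, 7.55 and 7.43 with RANKL alone. Replicate 2 with rGDF11 lay inside the range of the RANKL samples, and the log2 difference of -0.38 (95% interval -0.66 to -0.10) had a limma adjusted p of 0.0784. It passed without RANKL replicate 1 (limma adjusted p = 0.0384) or without RANKL + rGDF11 replicate 2 (0.0334). Of the 7 regulators, 2 were thus higher with rGDF11 and limma called none lower (1 at an unadjusted p under 0.05 and 0 by the methods' t-test after adjustment), beside 7.31% of all tested probe sets called higher and 8.64% called lower. Among the probe sets brighter than the median, where 6 of the 7 regulators fell, 12.1% were called higher and 15.1% lower.

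**Figure D1:**
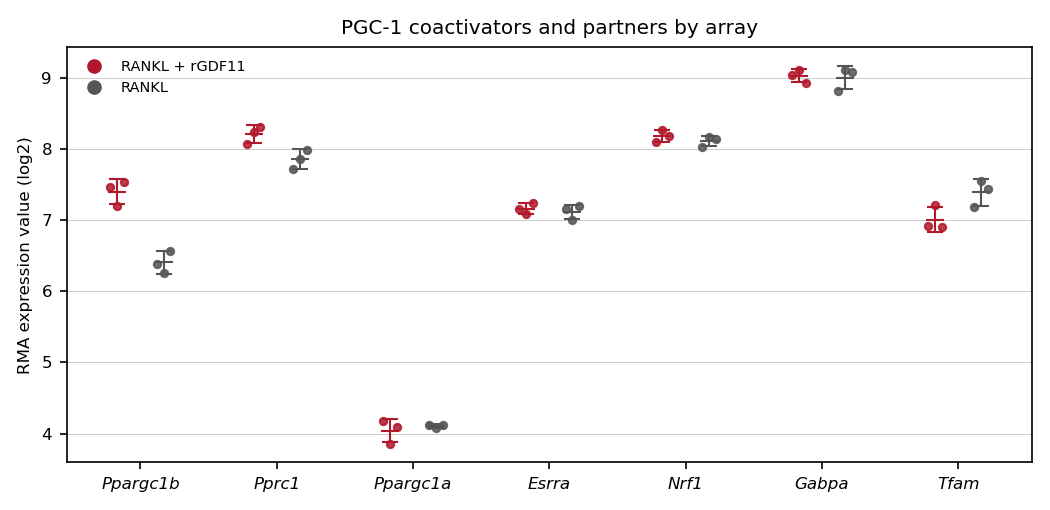
RMA expression values (log2) of the 7 PGC-1 coactivators and partners on each of the 6 arrays, with RANKL + rGDF11 left of RANKL for each gene (points are samples, bars the mean ± SD). The 3 rGDF11 samples of Ppargc1b lie between 7.20 and 7.53, all above the RANKL samples, while the groups of Ppargc1a, Esrra, Nrf1, Gabpa and Tfam overlap.

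Few of the chain genes passed the test, in either direction. Of the 89 genes, 5 were higher with rGDF11 (Ndufaf4, Sdhb, Uqcr11, Ndufb7 and Ndufs7), 3 were lower (Ndufa4, Cox6a1 and Atp5h) and 81 did not pass the test at a limma adjusted p under 0.05. That is 5.62% higher and 3.37% lower, against 12.1% and 15.1% of the probe sets brighter than the median of those tested, among which 82 of the 89 genes fell. The median log2 difference of the 89 genes was -0.0013, beside 0.024 for all tested probe sets and -0.0027 for the brighter ones, and 44 genes had a positive and 45 a negative difference. By array, the median level of the chain genes was 9.87 to 9.97 in the RANKL + rGDF11 samples and 9.88 to 9.92 in the RANKL samples, so that the ranges of the groups overlapped. For the brighter probe sets these medians were 8.44 to 8.50 and 8.45 to 8.52. The chain genes were thus compared, here and below, with probe sets that were dimmer by their median.

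The differences were also small, and the arrays were precise enough to bound them on the RMA scale. RMA compresses differences of dim genes, such as Cox7b2, Ndufa4l2 and Cox8b. The intervals bound the array signal only, for dim and bright members alike. How far the signal follows RNA in the brightest members was not tested. Atp5b, for example, averaged 13.06 with rGDF11 and 13.01 with RANKL alone (log2). The standard error of a chain gene's log2 difference ran between 0.06 and 0.15, with a median of 0.07. For 86 of the 89 genes (96.6%) the 95% interval lay wholly within 1.5-fold in either direction, against 83.5% of the brighter probe sets and 88.1% of all tested, and for 61 genes it lay within 1.25-fold. The exceptions to the wider bound were Ndufa4, Ndufaf4 and Cox6a2. The interquartile range of the differences was 0.18 on the log2 scale, against 0.29 for the brighter probe sets, and 82.0% of the chain genes differed by under 0.2 against 62.1% of the brighter ones. At the thresholds of the study's methods, a fold change of 1.5 with an unadjusted p under 0.01, 1 of the 89 genes passed (Ndufa4, 1.12%), beside 5.03% of all tested probe sets and 8.76% of the brighter ones. The values of the groups did not overlap in 36 of the 89 genes (40.4%), beside 32.9% of all tested probe sets and 51.8% of the brighter ones.

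**Figure D2:**
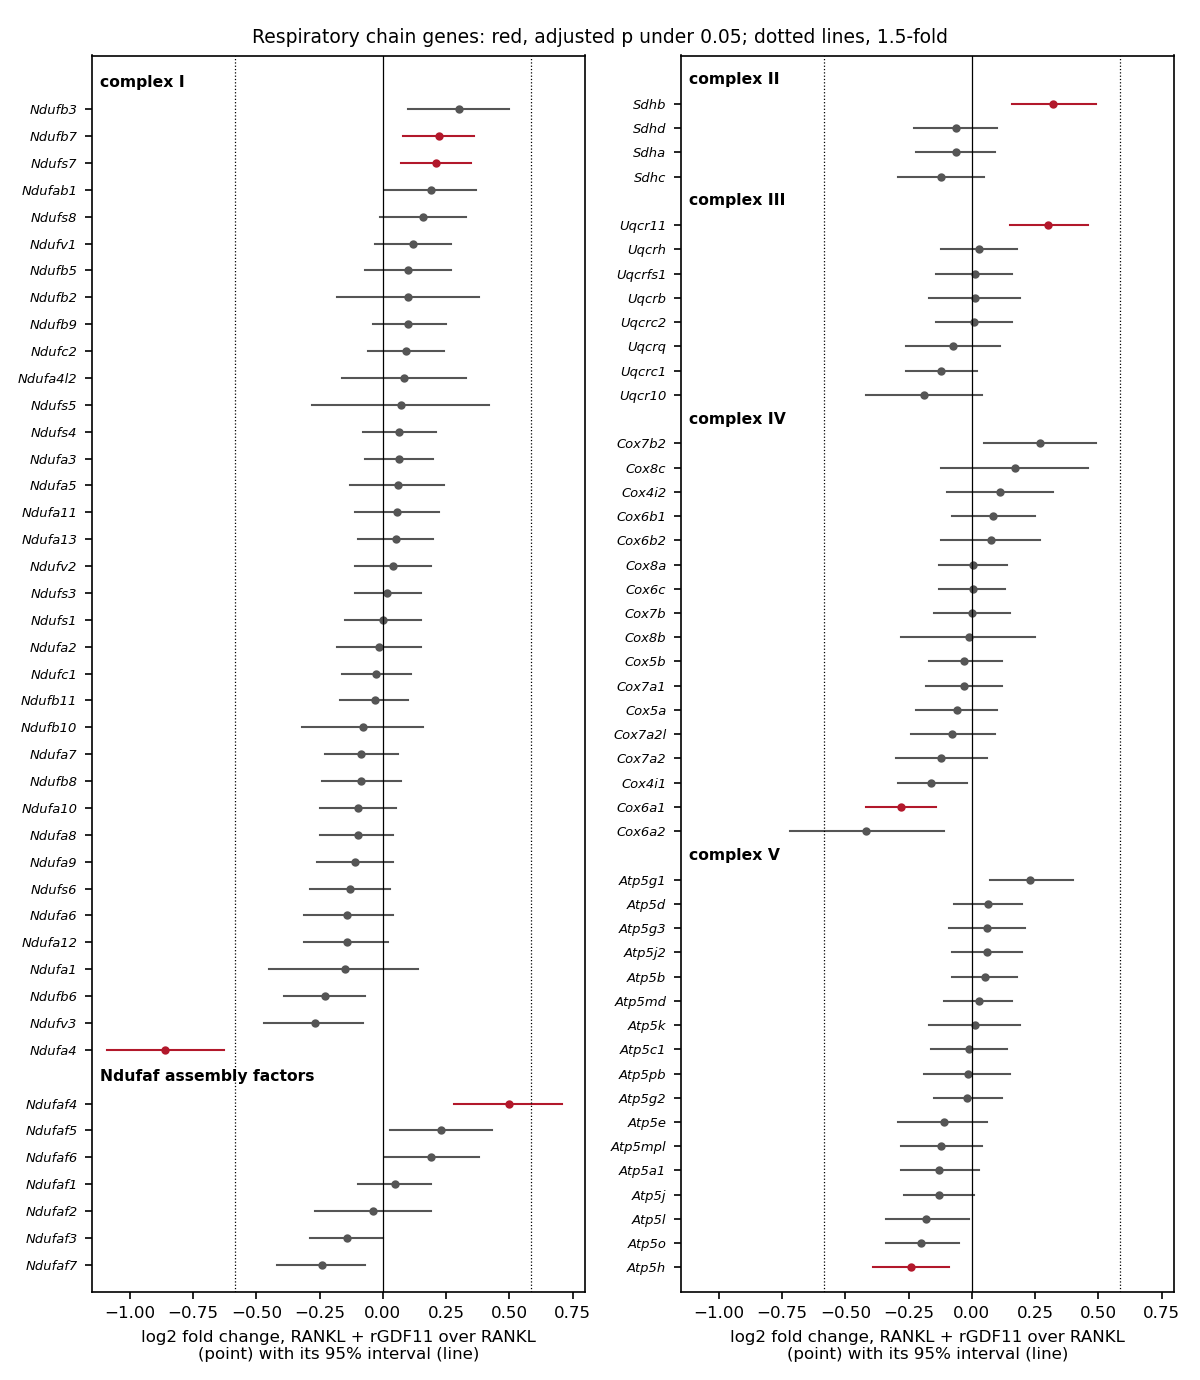
Log2 fold change of each of the 89 respiratory chain genes (point), RANKL + rGDF11 over RANKL, with its 95% interval (line), by complex. Most intervals cross 0 and 86 of them lie between the dotted lines at 1.5-fold, and Ndufa4 stands apart at -0.86.

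Ndufa4 had the largest difference of the 89 chain genes. It read 8.65, 8.94 and 8.62 in the RANKL + rGDF11 samples against 9.51, 9.67 and 9.61 in the RANKL samples. Each rGDF11 sample lay below every RANKL sample by more than the spread within either group. The log2 difference was -0.86 (95% interval -1.09 to -0.63, limma adjusted p = 0.000888), so that the level was 1.81-fold lower with rGDF11 (95% interval 1.55 to 2.13). The product of Ndufa4 was first described in complex I, and its symbol places it there, but it is now known as a subunit of complex IV. Its other named relative in complex I, Ndufa4l2, had a log2 difference of 0.085 (limma adjusted p = 0.685).

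A further relative of Ndufa4, AA467197, was looked at after the values had been seen and is not among the 96 genes. It is the mouse gene also called Nmes1, its protein resembles that of Ndufa4, and RefSeq places Mir147 within it. AA467197 read 10.65, 10.65 and 10.55 with rGDF11 against 9.08, 9.04 and 8.76 with RANKL alone. It was 3.16-fold higher with rGDF11 (95% interval 2.71 to 3.68, limma adjusted p = 3.44e-05), opposite in direction to Ndufa4. The microRNA itself was not measured on these arrays.

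In complex I as grouped by symbol, 2 of the 36 genes were higher (5.56%) and Ndufa4 alone was lower (2.78%), with a median log2 difference of 0.028. Of the brighter probe sets 12.1% were called higher and 15.1% lower, and of all tested 7.31% and 8.64%. Ndufa4 is counted among the 36 by its symbol, although its product is now placed in complex IV. Ndufb7, an accessory subunit of the membrane arm, read 9.95, 9.87 and 9.98 with rGDF11 against 9.73, 9.70 and 9.70 with RANKL alone (1.17-fold, 95% interval 1.06 to 1.29, limma adjusted p = 0.0468). Ndufs7, a core subunit that carries an iron-sulphur cluster near the quinone site, read 12.22, 12.14 and 12.21 with rGDF11 against 11.95, 11.99 and 12.00 with RANKL alone (1.16-fold, 95% interval 1.05 to 1.27, limma adjusted p = 0.0484). The groups did not overlap in either gene, but the calls of Ndufb7 and Ndufs7 were at the edge and were lost whichever of the 6 arrays was left out (limma adjusted p between 0.0558 and 0.146 for Ndufb7 and between 0.0724 and 0.156 for Ndufs7). Just outside the threshold lay Ndufb3 with a log2 difference of 0.30 (limma adjusted p = 0.0557), Ndufb6 with -0.23 (0.0598) and Ndufv3 with -0.27 (0.0689), so that these accessory subunits pointed in different directions. The core subunits Ndufs1, Ndufs3, Ndufs8, Ndufv1 and Ndufv2 had log2 differences between 0.00023 and 0.16 and did not pass. Ndufs3, the gene nearest to the median of the complex, averaged 9.68 ± 0.015 with rGDF11 and 9.66 ± 0.023 with RANKL alone (log2, SD, n = 3 each).

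Of the 7 Ndufaf assembly factors, which build complex I and are not part of it, 1 was higher (14.3%). Of the brighter probe sets 12.1% were called higher, and nothing is read from so few genes. Ndufaf4 read 7.34, 7.65 and 7.41 in the RANKL + rGDF11 samples against 6.88, 7.05 and 6.98 in the RANKL samples, and the groups did not overlap (1.41-fold, 95% interval 1.21 to 1.64, limma adjusted p = 0.00962). The other factors spread over both directions. Ndufaf5 had a log2 difference of 0.23 (limma adjusted p = 0.128), Ndufaf6 of 0.19 (0.164) and Ndufaf7 of -0.24 (0.0706), and Ndufaf1 stood at the median of the group with 0.047 (0.699).

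In complex II, which oxidises succinate and belongs to the citric acid cycle as well, Sdhb was higher and the other 3 genes did not pass. Sdhb, the iron-sulphur subunit, read 9.90, 10.05 and 9.98 with rGDF11 against 9.67, 9.72 and 9.57 with RANKL alone (1.25-fold, 95% interval 1.12 to 1.40, limma adjusted p = 0.0185). The groups did not overlap, though the call was lost without RANKL replicate 3 (limma adjusted p = 0.0684), without RANKL + rGDF11 replicate 2 (0.0595) or without RANKL + rGDF11 replicate 3 (0.0564). Sdha, the flavoprotein that works beside it, averaged 11.06 ± 0.061 with rGDF11 and 11.12 ± 0.063 with RANKL alone (log2, SD, n = 3 each), and the membrane anchors Sdhc and Sdhd had log2 differences of -0.12 and -0.063.

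In complex III, 1 of 8 genes was higher (12.5%), beside 12.1% of the brighter probe sets. Uqcr11, its smallest accessory subunit, read 9.04, 9.06 and 9.16 with rGDF11 against 8.70, 8.81 and 8.82 with RANKL alone (1.23-fold, 95% interval 1.11 to 1.38, limma adjusted p = 0.0194). A second, dimmer probe set of the gene gave the same log2 difference of 0.30 with a wider interval of 0.04 to 0.56 and did not pass (limma adjusted p = 0.128). The call of the first was lost without RANKL replicate 1 (limma adjusted p = 0.0616) or without RANKL + rGDF11 replicate 3 (0.0641). The Rieske protein Uqcrfs1 and the core proteins Uqcrc1 and Uqcrc2 had log2 differences of 0.013, -0.12 and 0.0079, and Uqcrb, near the median, averaged 11.83 ± 0.051 with rGDF11 and 11.82 ± 0.12 with RANKL alone (log2, SD, n = 3 each). Cyc1, the haem protein of the same complex, whose symbol the naming rule does not take, was higher by 0.28 on the log2 scale (1.22-fold, 95% interval 1.10 to 1.34, limma adjusted p = 0.0174). It read 10.62, 10.63 and 10.60 with rGDF11 against 10.27, 10.37 and 10.37 with RANKL alone, and its call was lost without RANKL replicate 1 (0.0562) or without RANKL + rGDF11 replicate 1 (0.0645) or 2 (0.0534).

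In complex IV, cytochrome c oxidase, 1 of 17 genes was lower (5.88%) and limma called none higher (1 at an unadjusted p under 0.05 and 0 by the methods' t-test after adjustment), with a median log2 difference of -0.013. Of all tested probe sets 7.31% were called higher and 8.64% lower, and of the brighter ones 12.1% and 15.1%. Ndufa4, also lower, was counted by its symbol in complex I and is not among these 17 genes. Cox6a1 read 10.04, 10.11 and 10.12 in the RANKL + rGDF11 samples against 10.41, 10.34 and 10.37 in the RANKL samples. The groups did not overlap, and the level was 1.21-fold lower with rGDF11 (95% interval 1.10 to 1.34, limma adjusted p = 0.0170), a call that was lost without RANKL replicate 1 (0.0563), RANKL replicate 3 (0.0551) or RANKL + rGDF11 replicate 1 (0.0741). Several subunits of this complex come in isoforms, of which one serves most tissues and another is known from heart and muscle, lung or testis. Cox6a2, the heart and muscle form paired with Cox6a1, read 5.90, 5.84 and 6.20 with rGDF11 against 6.63, 6.33 and 6.24 with RANKL alone. Its log2 difference of -0.42 had a wide interval (-0.72 to -0.11) and did not pass (limma adjusted p = 0.0721). Cox4i1, the general form of the largest nuclear-encoded subunit, had a log2 difference of -0.16 (limma adjusted p = 0.120) without overlap of the groups, and Cox4i2, the form known from lung, one of 0.11 (0.501).

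The remaining isoforms did not pass the test. Cox7b2, the testis form of Cox7b, read 3.51, 3.32 and 3.22 with rGDF11 against 3.04, 2.99 and 3.20 with RANKL alone. The groups did not overlap, and the log2 difference was 0.27 (95% interval 0.05 to 0.49, limma adjusted p = 0.0990), while Cox7b had one of -0.0013. Cox6b1 and its testis form Cox6b2 had log2 differences of 0.084 and 0.076. Cox7a2 had one of -0.12, its heart and muscle form Cox7a1 one of -0.031, and Cox7a2l, which helps complexes III and IV to join, one of -0.078. Cox8a, the general form of its subunit, averaged 11.62 ± 0.017 with rGDF11 and 11.61 ± 0.028 with RANKL alone (log2, SD, n = 3 each), while the heart and muscle form Cox8b had a log2 difference of -0.013 and the testis form Cox8c one of 0.17. Apart from Cox7b2, the smallest limma adjusted p among these isoforms was 0.376, that of Cox7a2.

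In complex V, 1 of 17 genes was lower (5.88%) and limma called none higher (1 at an unadjusted p under 0.05 and 1, Atp5b with a log2 difference of 0.053, by the methods' t-test after adjustment), with a median log2 difference of -0.016. The brighter probe sets, which include all 17, were called higher in 12.1% and lower in 15.1%. Atp5h, which encodes subunit d of the peripheral stalk, read 11.01, 11.14 and 11.04 with rGDF11 against 11.25, 11.35 and 11.30 with RANKL alone, so that it was 1.18-fold lower with rGDF11 (95% interval 1.06 to 1.31, limma adjusted p = 0.0460). All 3 of its probe sets were called lower, with log2 differences of -0.25 to -0.24. They were read on the same 6 samples and are not independent of each other. Leaving out any of the 6 arrays took the limma adjusted p of the brightest to between 0.0519 and 0.156, so that the call was lost. Another stalk subunit, Atp5o, had a log2 difference of -0.20 without overlap of the groups (limma adjusted p = 0.0746), and Atp5pb, subunit b of the stalk, averaged 11.37 ± 0.072 with rGDF11 and 11.38 ± 0.091 with RANKL alone (log2, SD, n = 3 each). The 3 genes Atp5g1, Atp5g2 and Atp5g3 encode the same mature c subunit of the rotor with different targeting peptides. Atp5g1 read 11.40, 11.40 and 11.55 with rGDF11 against 11.17, 11.21 and 11.28 with RANKL alone, which put it just outside the threshold (1.17-fold, 95% interval 1.05 to 1.32, limma adjusted p = 0.0666). Atp5g2 and Atp5g3 had log2 differences of -0.018 and 0.061 (limma adjusted p = 0.890 and 0.607), and the difference between the 3 genes was not tested.

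**Figure D3:**
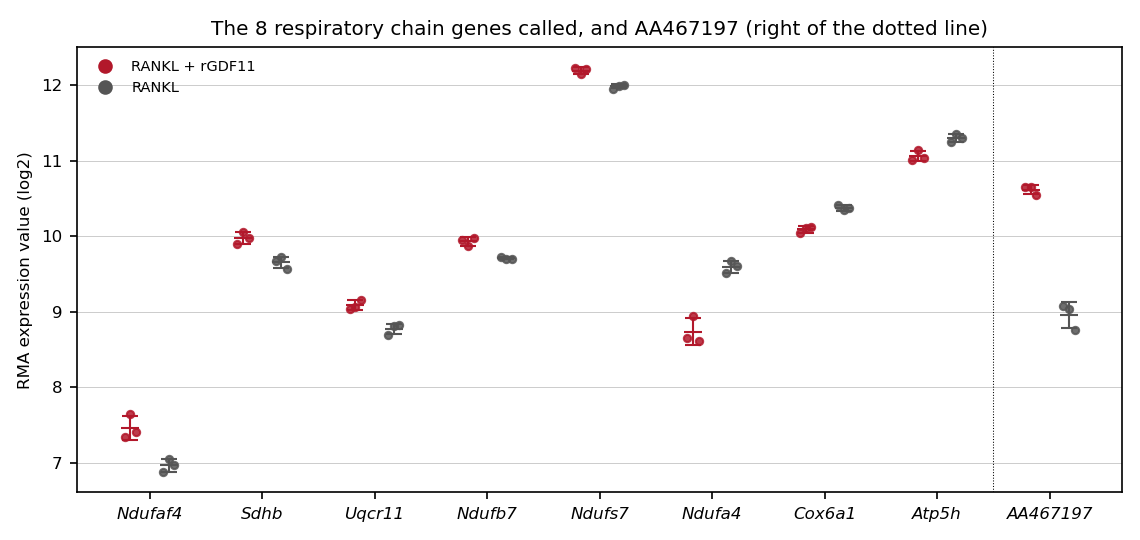
RMA expression values (log2) by array for the 8 respiratory chain genes called by limma and, right of the dotted line, AA467197, with RANKL + rGDF11 left of RANKL for each gene (points are samples, bars the mean ± SD). The groups do not overlap in any of them, and the gap of Ndufa4 (-0.86 on the log2 scale) is wider than that of the other 7 chain genes (between 0.21 and 0.50 in size).

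Probe sets of the same gene gave close values. Of the 96 genes, 18 had several probe sets of their own, among them Atp5l with 6, and the log2 differences within a gene spread by a median of 0.018 and by 0.066 at most (Ndufb11). No gene had probe sets called in opposite directions. Atp5h, Atp5l and others of these small, highly expressed genes are known to have processed copies elsewhere in the genome, and how far their probe sets also read such copies was not tested.

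The naming rule leaves out some genes of the chain. Of 6 such genes, Cyc1 was higher (16.7%, beside 12.1% of the brighter probe sets) and 5 did not pass. Cycs, the somatic cytochrome c that carries electrons from complex III to complex IV, averaged 12.57 ± 0.047 with rGDF11 and 12.50 ± 0.038 with RANKL alone (log2, SD, n = 3 each), which is 1.05-fold (95% interval 0.948 to 1.15). The transcripts encoded by mitochondrial DNA that had a probe set of their own, COX2 and ND3, had log2 differences of 0.0011 and -0.016 (limma adjusted p = 0.994 and 0.919). Among 37 further assembly factors, 1 was higher (2.7%) and 3 were lower (8.11%), beside 12.1% and 15.1% of the brighter probe sets. Surf1, which helps to build complex IV, was 1.37-fold lower with rGDF11 (95% interval 1.22 to 1.55, limma adjusted p = 0.00500), with 7.98, 8.13 and 7.91 in the RANKL + rGDF11 samples against 8.42, 8.47 and 8.50 in the RANKL samples. Sdhaf4 of complex II had a log2 difference of -0.44 (limma adjusted p = 0.0320) and Tmem126b of complex I one of -0.31 (0.0309), while Ttc19 of complex III was higher by 0.26 (0.0212). The call of Ttc19 held without RANKL replicate 1 and that of Tmem126b without RANKL replicate 3, and both were lost when any of the other 5 arrays was left out (limma adjusted p of up to 0.0745 for Ttc19 and 0.110 for Tmem126b).

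Other mitochondrial genes were counted in the same way, beside the 12.1% of brighter probe sets called higher and the 15.1% called lower. Of 18 genes of pyruvate oxidation and the citric acid cycle, 2 were higher (11.1%), both of them isocitrate dehydrogenases, and limma called none lower (1 at an unadjusted p under 0.05 and 0 by the methods' t-test after adjustment). Idh3a, the catalytic subunit of the NAD-dependent enzyme of the cycle, read 9.94, 10.16 and 9.98 with rGDF11 against 9.63, 9.65 and 9.63 with RANKL alone (1.31-fold, 95% interval 1.16 to 1.47, limma adjusted p = 0.0105). Idh2, the mitochondrial NADP-dependent enzyme, was 1.31-fold higher (95% interval 1.16 to 1.48, limma adjusted p = 0.0115), and its call was lost without RANKL replicate 3 (0.0507). The median of the list was -0.0054 on the log2 scale.

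Of 24 genes of mitochondrial protein import and chaperones, 5 were higher (20.8%) and 1 was lower (4.17%), beside the 12.1% and 15.1% of brighter probe sets, and the median log2 difference was 0.053. The chaperonin Hspd1 read 11.26, 11.29 and 11.28 with rGDF11 against 10.92, 10.99 and 10.86 with RANKL alone (1.28-fold, 95% interval 1.16 to 1.41, limma adjusted p = 0.00694). Its partner Hspe1 was 1.24-fold higher (95% interval 1.13 to 1.36, limma adjusted p = 0.0108). Timm9, a small chaperone of the intermembrane space, was 1.42-fold higher (95% interval 1.24 to 1.63, limma adjusted p = 0.00510). Timm13 and Tomm5 were higher by 0.25 and 0.39 on the log2 scale (limma adjusted p = 0.0461 and 0.0342), and Timm13 was close to the threshold. Lonp1, the matrix protease, was 1.21-fold lower (95% interval 1.10 to 1.34, limma adjusted p = 0.0217), and its call was lost without RANKL replicate 2 (0.0635) or 3 (0.0790) or without RANKL + rGDF11 replicate 1 (0.0894) or 2 (0.0517).

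Of 18 genes for transcription, replication and translation inside the mitochondrion, 2 were higher (11.1%, Ssbp1 by 0.46 and Tsfm by 0.33 on the log2 scale) and 1 was lower (5.56%, Slirp, with a log2 difference of -0.33). The shares of the brighter probe sets were 12.1% and 15.1%. The call of Ssbp1 held without RANKL replicate 2 and that of Tsfm without RANKL replicate 3, and both were lost without any of the other 5 arrays (limma adjusted p of up to 0.0764 for Ssbp1 and 0.112 for Tsfm). That of Slirp was lost without RANKL replicate 3 (0.0517) or RANKL + rGDF11 replicate 3 (0.0509). The genes of the mitochondrial ribosome were taken by symbol alone, as those beginning with Mrpl or Mrps. Of these 77 genes, 7 were higher (9.09%) and 3 were lower (3.90%), beside the same 12.1% and 15.1%, with a median of -0.048. Mrpl52 of the large subunit was 1.54-fold higher (95% interval 1.39 to 1.70, limma adjusted p = 0.000412), with 9.61, 9.61 and 9.65 in the RANKL + rGDF11 samples against 8.93, 9.02 and 9.04 in the RANKL samples. Mrps6 of the small subunit was 1.73-fold lower (95% interval 1.55 to 1.94, limma adjusted p = 0.000230), with 10.06, 9.91 and 10.02 in the RANKL + rGDF11 samples against 10.72, 10.79 and 10.86 in the RANKL samples. Of the other small-subunit genes, Mrps28 was higher by 0.44 on the log2 scale and Mrps18c had a log2 difference of -0.39 (limma adjusted p = 0.00380 and 0.00935), so that called genes lay in both directions. Of 12 genes of mitochondrial dynamics and mitophagy, limma called none, with 3 at an unadjusted p under 0.05 and 0 by the methods' t-test after adjustment. Of 11 carriers, porins and antioxidants 1 was called, Gpx4, a peroxidase that reduces lipid peroxides, with a log2 difference of -0.28 (limma adjusted p = 0.0298). Its call held without RANKL replicate 3 and was lost without any of the other 5 arrays (limma adjusted p of up to 0.0983).

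Of 17 genes known to act on the PGC-1 coactivators or with them, 2 were higher (11.8%) and 1 was lower (5.88%), beside 12.1% and 15.1% of the brighter probe sets. Pparg, a nuclear receptor that PGC-1 proteins bind and that is known to promote Ppargc1b expression in osteoclast precursors, read 9.48, 9.38 and 9.55 with rGDF11 against 10.20, 10.29 and 10.43 with RANKL alone. It was 1.79-fold lower with rGDF11 (95% interval 1.57 to 2.04, limma adjusted p = 0.000385), opposite in direction to Ppargc1b. Nrip1, which encodes the corepressor RIP140 that counteracts the PGC-1 proteins, read 8.03, 8.01 and 7.96 with rGDF11 against 7.45, 7.47 and 7.55 with RANKL alone (1.42-fold higher, 95% interval 1.29 to 1.57, limma adjusted p = 0.00113). Ppard, a further PPAR receptor, was 1.30-fold higher (95% interval 1.15 to 1.46, limma adjusted p = 0.0114), and its call was lost without RANKL + rGDF11 replicate 1 (0.0506). Creb1 and the transferrin receptor Tfrc, known in osteoclasts as the activator of Ppargc1b under RANKL and as the source of iron for respiratory proteins, had log2 differences of 0.13 and -0.11 (limma adjusted p = 0.351 and 0.430).

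**Figure D4:**
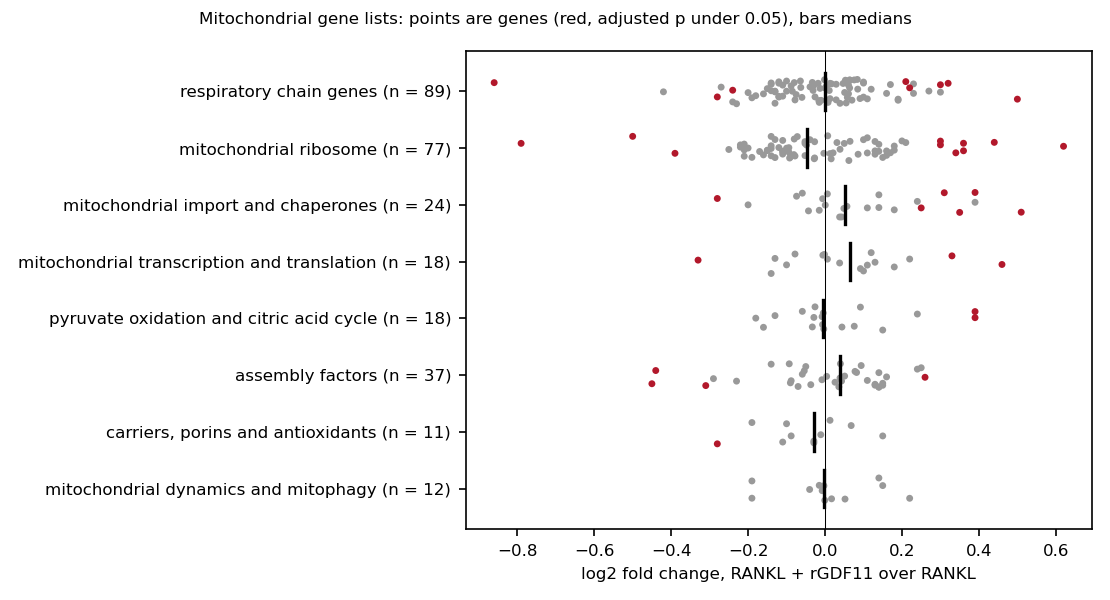
Log2 fold change (RANKL + rGDF11 over RANKL) of the respiratory chain genes and of 7 other lists of mitochondrial genes, 1 point a gene, red where limma's adjusted p was under 0.05, with a bar at each list's median. The medians lie close to 0, at -0.0013 for the 89 chain genes and 0.053 for import and chaperones, and the chain's red points lie on both sides.

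Markers of cell types were read on the same arrays. Of all tested probe sets 7.31% were called higher with rGDF11 and 8.64% lower, and of the brighter ones 12.1% and 15.1%. All 6 macrophage markers were brighter than the median of the tested probe sets, and 4 of them were lower with rGDF11 (array medians of the list 11.60 to 11.67 with rGDF11 and 11.91 to 11.94 with RANKL alone), while 5 of 6 osteoclast markers were higher (8.40 to 8.48 with rGDF11 and 7.51 to 7.67 with RANKL alone). Among other cells, the neutrophil markers Ngp and S100a8 and the stromal markers Col1a1 and Col1a2 were higher with rGDF11 by 0.63 to 1 on the log2 scale, with array medians of 6.31 to 6.40 with rGDF11 and 5.79 to 5.90 with RANKL alone for the neutrophil list, of which Ly6g had a log2 difference of -0.22. The stromal list had array medians of 6.47 to 6.62 with rGDF11 and 6.05 to 6.16 with RANKL alone. The megakaryocyte marker Pf4 was 2.15-fold lower with rGDF11 (limma adjusted p = 0.000373), with Gp9 and Itga2b not called. The endothelial marker Kdr and the T cell marker Cd4 were lower too, with log2 differences of -0.50 and -0.25. The endothelial marker Pecam1 and the erythroid marker Alas2 were higher by 0.28 and 0.23. The other markers of these lists were not called, namely Cdh5 (-0.081), Cd3e (0.14), Cd3g (-0.024), Cd8a (-0.13) and Klf1 (0.0015). The T cell, B cell, erythroid and endothelial markers were all below the median of the tested probe sets. The part of these shifts in the values of the chain genes and the regulators was not tested. The arrays were otherwise alike, with medians of 6.11 to 6.18, and correlations across probe sets of 0.9966 to 0.9976 within a group and 0.9886 to 0.9913 between groups.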

How the data were processed

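Expression was measured in 6 BMM samples on Affymetrix Mouse Gene 1.0 ST arrays. The authors made the deposited log2 values with the robust multichip average method (RMA), which corrects background, normalises across arrays and summarises probes, using Expression Console (version not given in the sources used here) and Transcriptome Analysis Console 3.0. RMA compresses differences of dim genes, and arrays have no read depth. The number of arrays limits the precision. Symbols came from the platform annotation: 21789 probe sets had 1 symbol and 1621 several. Differences between groups came from limma 3.58.1 under R 4.3.3 (eBayes with no trend after lmFit, two-sided, 95% intervals), with Benjamini-Hochberg adjustment over these 23410 probe sets. A call was an adjusted p under 0.05. For single genes, 3 against 3 samples allow no exact permutation p under 0.1. The script was tested on simulated data. Members and lists were chosen with earlier results of these data known, and some lists hold genes the study named. Named were all regulators, in each complex up to 3 called genes per direction and the gene nearest to the median, the isoform pairs, up to 2 called genes per direction in each other list, and Tfrc, Creb1, Cyc1 and Cycs. Genes named outside this rule were chosen after their values were seen. Alternatives were other row sets, normalisations, spread estimates, thresholds and probe sets, a replicate block and each array left out.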

Additional observations from a re-analysis of the deposited data

How the results depend on the processing

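The counts of chain genes called, 5 higher and 3 lower, moved with the setting, while the median log2 difference stayed between -0.017 and 0.029 in every setting run. With all probe sets in the adjustment or with the arrays centred on their median, 3 genes were higher. With only the brighter probe sets tested, 8 were higher and 9 lower of the 82 genes left, beside 17.9% and 21.3% of all those rows. A mean-variance trend gave 8 higher and 10 lower (8.99% and 11.2%, beside 9.69% and 11.3% of all rows, bright and dim). In the main setting all rows stood at 7.31% and 8.64%. The brighter rows, to which the chain genes were compared above, were not counted separately under the trend. At a fold of 1.5 with an unadjusted p under 0.01, 0 were higher and 1 was lower, and at an adjusted p under 0.01 there was 1 in each direction. With 1 array left out, 1 to 4 were higher and 1 to 3 lower. The cause was not tested beyond the changed rows, thresholds and samples.

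Over 15 refits, Ndufa4 (log2 difference -0.96 to -0.80, adjusted p up to 0.00774 with limma and 0.0229 with the methods' t-test) and Ppargc1b (0.92 to 1.09, up to 0.00502 and 0.0243) were called in 15. Ndufaf4 was called in 14 and missed with the methods' t-test after adjustment, and Pprc1 was called in 8 (adjusted p between 0.00954 and 0.136 with limma and 0.143 with the t-test). Correlations of the deviations were 0.0635, 0.335 and -0.000832 between same-numbered samples of the groups, and between -0.322 and 0.275 for the other combinations. These values do not settle whether the replicate numbers pair the samples. With a replicate block, 4 chain genes were higher and 3 lower with a median of -0.0013. Atp5h, Ndufb7 and Ndufs7 then missed the threshold (limma adjusted p = 0.0528, 0.0712 and 0.0796), as did Gpx4 and Tsfm (0.0600 and 0.0520), while Ndufb3 (0.0375), Ndufv3 (0.0493) and Tfam (0.0259) passed it.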
